A study of Rattus norvegicus with 16 samples.

Results

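Glomeruli of rats with puromycin aminonucleoside (PAN) nephrosis that had been given pioglitazone were compared here with glomeruli of sham control rats. The comparison took the 4 libraries of the PAN + Pio group and the 4 libraries of the sham control group, 8 of the 16 libraries of the series, and all 36351 genes of the count table, of which 17061 had enough reads to be tested. PAN + Pio rats had received PAN at 50 mg/kg into the tail vein on day 0 and then pioglitazone at 10 mg/kg by mouth daily. Sham rats were healthy and had received vehicle by mouth daily. The other groups of 4 were PAN rats given vehicle (called PAN below) and PAN rats given methylprednisolone at 15 mg/kg into the peritoneum daily (PAN + MP), and glomeruli of all groups were isolated on day 11. No group had received pioglitazone without PAN, so in this comparison a difference left by PAN and one added by the drug cannot be told apart without the PAN group. The strain, sex, age and hour of kill of the rats are not stated in the records at hand.

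The glomerulus is the filter of the kidney, built of podocytes, fenestrated endothelium and mesangial cells around a shared basement membrane. PAN is a podocyte toxin used in rats as a model of nephrotic syndrome: the foot processes of podocytes flatten and protein passes into the urine. Pioglitazone is a thiazolidinedione that activates the nuclear receptor PPAR gamma, which pairs with RXR and switches on genes of lipid uptake, storage and oxidation.

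The 8 libraries held 22802109 to 26682386 counts, and no replicate pair of either group agreed within sampling noise. Libraries are numbered within a group by their order in the table, which is only a name. Sham library 2 and PAN + Pio library 3 carry an extra tag in their column names that the labels do not explain, and several counts are also given without both. The defining markers of podocytes (Nphs1, Wt1, Podxl), endothelium (Kdr, Pecam1, Ehd3) and mesangium (Pdgfrb, Itga8) were abundant in each of the 8 libraries, with 7779 counts or more for each of these 8 genes. Transcripts of the proximal tubule, the neighbouring cell type, summed over 18 markers to 3429–7146 CPM (reads scaled to library depth, the unit of all levels here) in sham libraries and 5431–7339 CPM in PAN + Pio libraries. None of these 18 markers and none of 15 distal nephron markers differed at the threshold used, an adjusted p under 0.05. Their median log2 fold changes were nevertheless 0.60 and 0.58. An unadjusted p under 0.05 was found for 1 and 5 of them, against 4098 of all 17061 tested genes. DESeq2 and limma-voom called none of these markers. These are bulk libraries, in which fewer cells of a type and less RNA per cell cannot be told apart.

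PAN + Pio glomeruli differed from sham in 867 genes (5.08% of those tested), 511 higher (3%) and 356 lower (2.09%). The median size of these differences was 0.59 on the log2 scale, and 194 genes differed by at least 2-fold, 134 of them higher and 60 lower. The median log2 fold change over all tested genes was -0.0011. In 798 of the 867 genes the 4 PAN + Pio values and the 4 sham values did not overlap, against 13.2% of all tested genes. The calls rest on the same libraries, so this count describes the called genes and is not separate support for them. By comparison, PAN against sham, which shares the sham libraries, differed in 3231 genes (18.9%), 1777 higher (10.4%) and 1454 lower (8.52%), and PAN + MP against sham in 2167 (12.7%). The count depended on single libraries: it was 334 without Sham library 1, 336 without PAN + Pio library 1, 396 without PAN + Pio library 3, 403 without PAN + Pio library 4, 528 without Sham library 3 and 507 without both tagged libraries. The share of calls that were higher was 58.9% by edgeR and 48.1% of 1780 calls by DESeq2, and 54.2% with edgeR on DESeq2's scaling (RLE).

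**Figure D1:**
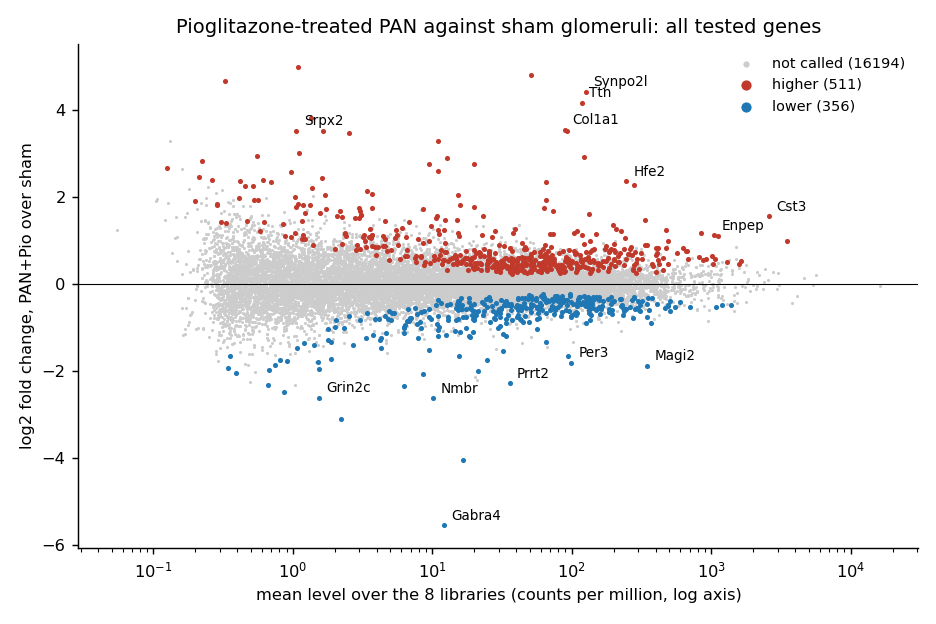
Log2 fold change of PAN + Pio over sham (y axis) against the mean level over the 8 libraries in CPM (x axis, log scale) for the 17061 tested genes. Red points are the 511 genes called higher and blue points the 356 called lower, and genes described in the text are named.

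Most of the 867 genes also differed between PAN and sham. There were 653 genes (397 higher and 256 lower) that were called with the same sign in PAN against sham and not called between PAN + Pio and PAN, 51 that PAN + Pio had moved toward sham without reaching it, 12 that were called with the same sign against both sham and PAN, and 151 called against sham in PAN + Pio alone among these 3 comparisons. These comparisons share libraries, so the counts describe the calls and do not test an overlap, and a gene not called between PAN + Pio and PAN is not shown to be equal in them. The set of 653 held 256 genes without Sham library 1, 275 without PAN + Pio library 1, 321 without PAN + Pio library 3, 337 without PAN + Pio library 4, 398 without Sham library 3 and, with PAN library 2 left out, 983.

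The highest called genes by the naming rule, which takes only genes without overlap between the groups, included Synpo2l and Ttn. Synpo2l is a sarcomere protein related to synaptopodin, and Ttn encodes titin, the molecular spring of the sarcomere. Synpo2l measured 14.9, 13.7, 9.13 and 7.405 CPM in sham and 324, 243, 226 and 176 CPM in PAN + Pio. The lowest treated library was more than 10 times the highest sham library, and the log2 fold change was 4.43 ± 0.41 (SE, n = 4 libraries a group here and below; adjusted p = 2.4e-05, edgeR quasi-likelihood test adjusted over all tested genes), or 21.5-fold. Ttn measured 18.7, 10.3, 15.9 and 4.48 CPM in sham and 259.7, 184, 313 and 133 CPM in PAN + Pio, a log2 fold change of 4.17 ± 0.54 (adjusted p = 0.00065). Myom2, a protein of the sarcomere M-band, was 7.57-fold higher (log2 2.92 ± 0.26, adjusted p = 1.4e-05), and Dusp27, an atypical phosphatase-like gene of muscle, 9.74-fold higher (log2 3.28 ± 0.28, adjusted p = 1.4e-05). Pygm, the muscle form of glycogen phosphorylase, which releases glucose units from glycogen, measured 15.01, 14.8, 18.6 and 10.8 CPM in sham and 214, 136, 202 and 124 CPM in PAN + Pio (log2 3.52 ± 0.38, adjusted p = 0.00013).

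Several of these genes are known from striated muscle, and calls on a list of such genes went in both directions. Whether the list moved as a group was not tested. Of 20 tested genes on a striated muscle and sarcomere list, 5 were higher (Synpo2l, Ttn, Myom2, Tnni1 and Myh3) and 3 lower (Actn3, Myl3 and Nebl). That is 40% called, against 5.08% of all tested genes. The median log2 fold change was 0.44, and 14 had a positive sign and 6 a negative one. Tnni1, slow skeletal troponin I, was low in CPM and 2.21-fold higher (log2 1.15 ± 0.21, adjusted p = 0.0068). Actn3, the actinin of fast muscle fibres, was lower by -0.99 ± 0.22 (log2, adjusted p = 0.017), and Myl3, a ventricular and slow muscle myosin light chain, by -0.82 ± 0.19 (adjusted p = 0.024). Single libraries decided part of this count. With 1 library left out, 4 to 6 genes of the list were called higher and 0 to 4 lower. Without both tagged libraries 4 were called higher and 0 lower. Myh3, embryonic myosin, lost its call without Sham library 1 (adjusted p = 0.064) or PAN + Pio library 3 (0.06). Actn3 lost it without PAN + Pio library 1 (0.067) or 3 (0.05), and Myl3 without Sham library 1 (0.081) or PAN + Pio library 1 (0.081), 3 (0.054) or 4 (0.063). Nebl lost it without PAN library 4, Sham library 1 or 2 or any PAN + Pio library (adjusted p = 0.056 to 0.14).

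The promoters of the highest muscle genes are shown because members of the MEF2 family, transcription factors of muscle, bind an A- and T-rich site. RefSeq (GRCr8) gave a promoter, 250 bases before to 50 bases after the first listed start, for 4 of the 5 higher sarcomere genes, and 2 of these, Synpo2l and Ttn, held a match to the MEF2 site on either strand. The site was present in 3.37% of all 27457 promoters of 300 bases. Hfe2, described below and listed by RefSeq under its newer symbol Hjv, also held one. It was the only gene outside the sarcomere list picked for this look, so its match adds nothing to the share. Capitals mark the match, which describes letters and not binding.
Synpo2l (chr15:3684760-3685059, plus strand): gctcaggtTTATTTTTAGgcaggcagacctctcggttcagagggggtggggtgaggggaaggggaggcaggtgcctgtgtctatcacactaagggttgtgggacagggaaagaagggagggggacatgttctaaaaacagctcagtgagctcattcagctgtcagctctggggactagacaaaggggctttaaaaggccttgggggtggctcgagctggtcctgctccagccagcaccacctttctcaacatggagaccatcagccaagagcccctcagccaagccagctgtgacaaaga
Ttn (chr3:82332061-82332360, minus strand): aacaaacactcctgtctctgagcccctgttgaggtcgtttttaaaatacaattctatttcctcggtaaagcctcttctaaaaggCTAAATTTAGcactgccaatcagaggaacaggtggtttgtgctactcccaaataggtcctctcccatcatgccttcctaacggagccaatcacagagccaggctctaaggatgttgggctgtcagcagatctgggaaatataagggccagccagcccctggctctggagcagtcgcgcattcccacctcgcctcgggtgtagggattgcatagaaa
Hfe2 (chr2:186754551-186754850, plus strand): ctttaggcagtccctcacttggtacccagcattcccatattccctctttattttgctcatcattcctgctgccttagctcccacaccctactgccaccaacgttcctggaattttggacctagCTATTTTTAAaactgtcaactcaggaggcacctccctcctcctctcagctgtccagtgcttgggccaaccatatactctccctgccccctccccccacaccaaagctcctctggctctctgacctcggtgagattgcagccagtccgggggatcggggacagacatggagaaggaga

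Among the genes that differed from sham alike in PAN and in PAN + Pio, those with the smallest adjusted p included Hfe2, Scg2, Cst3, Slc39a13 and Slc23a2. Hfe2 encodes hemojuvelin, the bone morphogenetic protein co-receptor that sets hepcidin in liver and is abundant in muscle. It measured 65.9, 101, 69.4 and 81.9 CPM in sham, 433, 359.7, 473 and 373 CPM in PAN + Pio and 401, 381, 434 and 442 CPM in PAN. The PAN + Pio and PAN values overlapped and lay wholly above sham, at 5.15-fold for PAN + Pio (log2 2.36 ± 0.17, adjusted p = 4.8e-06). Scg2, a granin of secretory granules, rose from 21.3, 25.6, 18.9 and 20.03 CPM to 110.1, 72.8, 144 and 111 CPM (5.100-fold, log2 2.35 ± 0.21, adjusted p = 1.4e-05). Cst3, the secreted cysteine protease inhibitor cystatin C, rose from 1249, 1567, 979 and 1418 CPM to 4079.8, 3301, 3570.1 and 4463 CPM (2.96-fold, log2 1.56 ± 0.16, adjusted p = 7.9e-05).

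Smaller differences were as well resolved where libraries agreed closely. Slc39a13, a zinc transporter of the secretory pathway, measured 47.99, 57.99, 49.6 and 46.8 CPM in sham and 94.2, 89.8, 88.8 and 92.4 CPM in PAN + Pio, a 1.81-fold rise (log2 0.85 ± 0.07, adjusted p = 1.4e-05). Slc23a2, a vitamin C transporter, was 1.62-fold higher (log2 0.69 ± 0.07, adjusted p = 6.1e-05). Col1a1, a chain of fibrillar collagen I, measured 18.5, 10.2, 10.99 and 16.3 CPM in sham and 166, 75.8, 144 and 269.5 CPM in PAN + Pio (11.7-fold, log2 3.55 ± 0.59, adjusted p = 0.0035), a wide range within the treated group that did not reach sham. Camkv, a kinase-like calmodulin-binding protein of neurons, rose from 0.396, 0.221, 0.373 and 0.624 CPM to 6.02, 3.26, 5.46 and 3.67 CPM (log2 3.48 ± 0.29, adjusted p = 1.4e-05). Srpx2, a secreted sushi-repeat protein, was at 0.308, 0.133, 0.0745 and 0.156 CPM in sham, a few reads per library, and at 1.37, 0.844, 2.49 and 3.104 CPM in PAN + Pio (adjusted p = 0.005).

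**Figure D2:**
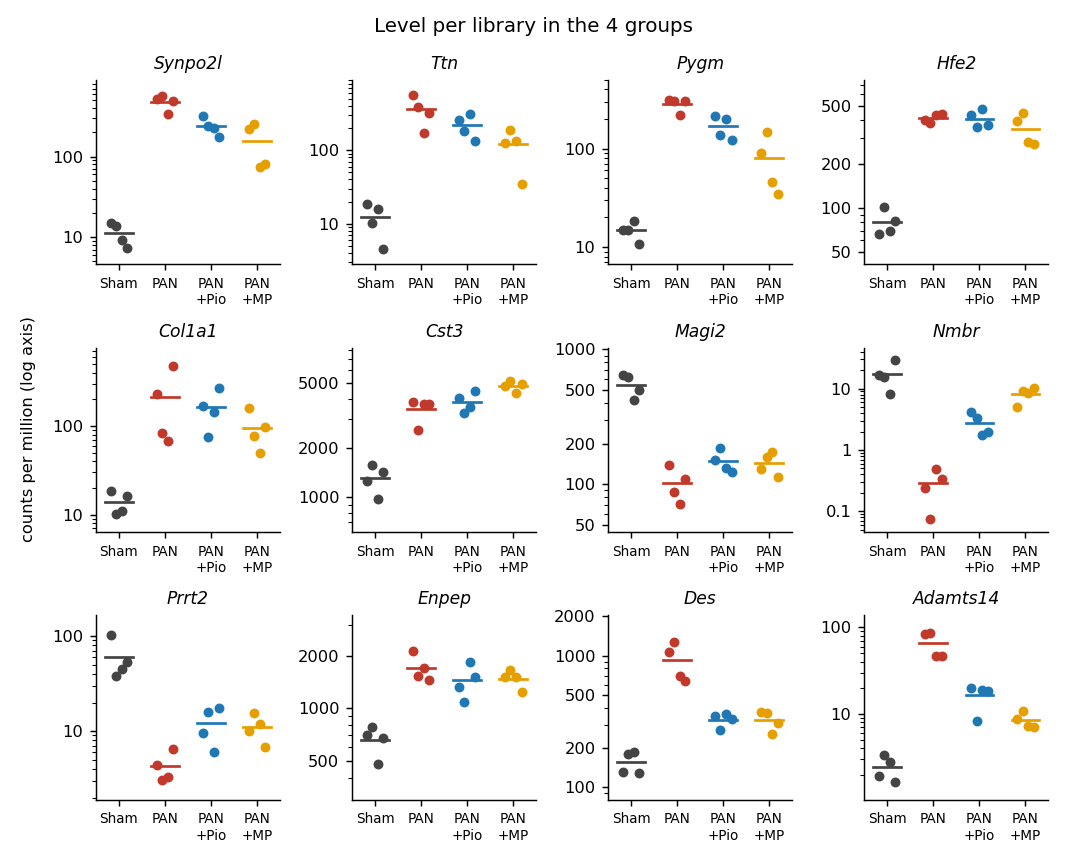
Level in CPM (y axis, log scale) of 12 genes in each of the 16 libraries by group, with a bar at each group mean. Synpo2l, Ttn, Pygm, Hfe2, Col1a1 and Cst3 are above sham in all 4 PAN + Pio libraries, Magi2, Nmbr and Prrt2 below it, and Enpep, Des and Adamts14 above it.

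The lowest called genes included Magi2, Ephb1, Prrt2, Nmbr, Grin2c, Asb2 and Bend4. Magi2, the scaffold that links nephrin at the slit diaphragm to the podocyte cytoskeleton, measured 645, 623, 419 and 499.8 CPM in sham and 151, 185, 133 and 122 CPM in PAN + Pio. Magi2 was 3.699-fold lower (log2 -1.89 ± 0.21, adjusted p = 0.00015), with PAN at -2.43 ± 0.21 and PAN + MP at -1.93 ± 0.21 against the same sham libraries. Ephb1, an ephrin receptor, was 4.03-fold lower (log2 -2.01 ± 0.26, adjusted p = 0.00065). Prrt2, a presynaptic protein in brain, measured 37.8–103 CPM in sham and 6.03–17.3 CPM in PAN + Pio (log2 -2.28 ± 0.38, adjusted p = 0.0033).

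Nmbr, the receptor for neuromedin B, lay between sham and PAN in PAN + Pio. It measured 16.8, 15.7, 8.12 and 29.2 CPM in sham, 0.241, 0.0742, 0.483 and 0.343 CPM in PAN and 4.11, 3.38, 1.75 and 1.97 CPM in PAN + Pio. The 3 groups did not overlap: PAN + Pio lay above PAN (adjusted p = 0.0032) and still 6.22-fold below sham (log2 -2.64 ± 0.39, adjusted p = 0.0016). Grin2c, a subunit of the NMDA glutamate receptor, went from 3.302, 3.49, 2.09 and 1.71 CPM to 0.291, 0.652, 0.571 and 0.189 CPM (log2 -2.62 ± 0.50, adjusted p = 0.008). It was not called in PAN against sham (log2 -0.86 ± 0.44, adjusted p = 0.18) and was as low in PAN + MP (log2 -2.59 ± 0.49, adjusted p = 0.0062). Asb2, which encodes a substrate adaptor of a ubiquitin ligase, was 5.07-fold lower (log2 -2.34 ± 0.45, adjusted p = 0.009), and Bend4 4.24-fold lower (log2 -2.08 ± 0.34, adjusted p = 0.0031).

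Gabra4, a subunit of the GABA-A receptor, had the largest fall in the fit and is not a stable difference. It measured 35.7, 0.796, 18.7 and 40.3 CPM in sham and 0.291, 0.575, 0.652 and 0.492 CPM in PAN + Pio. Sham library 2 was as low as the treated libraries, PAN libraries 2 and 3 and PAN + MP library 4 were also below 1 CPM, and the other libraries of those groups lay between 18.7 and 74.6 CPM. The fitted log2 fold change was -5.55 ± 1.54 (adjusted p = 0.049), and the call was lost on leaving out PAN library 1 or 4, Sham library 1, 3 or 4, or each of the PAN + Pio libraries (adjusted p = 0.057 to 0.13).

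Further residual falls were small to moderate and tight. Camta1, a calmodulin-binding transcription activator, was 1.79-fold lower, Atp10a, a phospholipid flippase, 1.76-fold lower, Rnf39 3.14-fold lower, Tmem229b 2.14-fold lower and Hexim1, an inhibitor of the elongation factor P-TEFb, 1.45-fold lower. Zfp161 was 1.38-fold lower (log2 -0.47 ± 0.07, adjusted p = 0.0024).

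**Figure D3:**
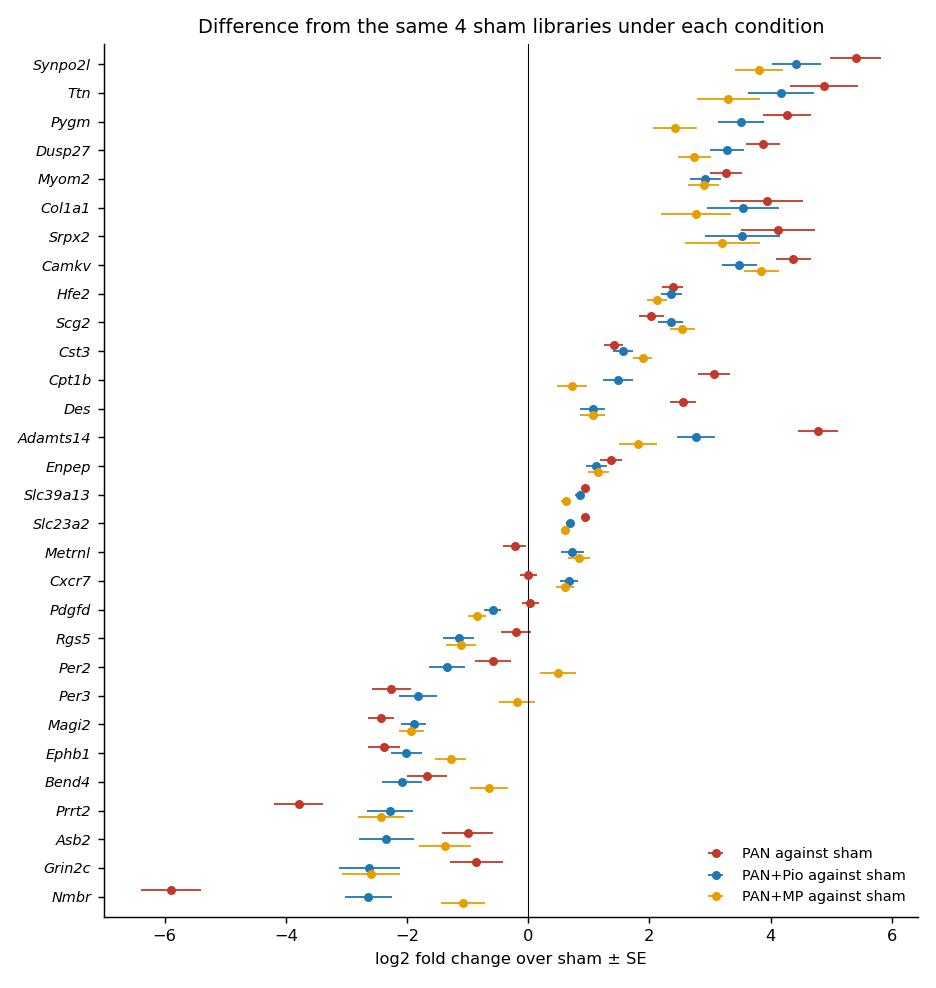
Log2 fold change over the same 4 sham libraries, with its SE, for PAN (red), PAN + Pio (blue) and PAN + MP (orange) in 30 genes. Synpo2l, Hfe2 and Cst3 lie far above 0 in all 3 conditions, Cpt1b, Des and Adamts14 lie nearer to 0 in PAN + Pio than in PAN, and Per2 and Per3 lie below 0 in PAN + Pio and near 0 or above it in PAN + MP.

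Of 29 tested podocyte identity genes, 4 differed from sham (13.8%, against 5.08% of all tested genes), 3 higher, Enpep and Nes among them, and 1, Magi2, lower. Their median log2 fold change was 0.10, and DESeq2 called 7 higher and 2 lower. Enpep, aminopeptidase A, which cleaves angiotensin II, measured 707, 779.9, 482 and 676 CPM in sham and 1323, 1081, 1847 and 1518 CPM in PAN + Pio. It was 2.18-fold higher (log2 1.12 ± 0.18, adjusted p = 0.0027). Nes, the intermediate filament nestin, was 1.45-fold higher (log2 0.54 ± 0.10, adjusted p = 0.0073). Nphs1, nephrin, gave 0.28 ± 0.17 (adjusted p = 0.33), Wt1, the podocyte transcription factor, 0.09 ± 0.17 (adjusted p = 0.78), Synpo, the actin-associated synaptopodin, -0.07 ± 0.15 (adjusted p = 0.82) and Podxl, the surface sialomucin podocalyxin, -0.04 ± 0.18 (adjusted p = 0.91), none of which passed the test. On a list of 26 genes of the injured podocyte cytoskeleton Des, Nes and Tubb6 were higher and Tpm1 was lower (15.4% called). The call of Tpm1, a tropomyosin, was lost without PAN library 1 or 4, Sham library 1, 2 or 4 or any PAN + Pio library (adjusted p = 0.051 to 0.11). That of Tubb6, a beta tubulin, was lost without PAN library 1, 3 or 4, Sham library 1, 2 or 4 or PAN + Pio library 1, 3 or 4 (0.052 to 0.15). Neither was called without both tagged libraries.

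Des, the intermediate filament desmin, which mesangial cells and injured podocytes make, was one of the genes moved toward sham without reaching it. It measured 131, 180.0, 185 and 129 CPM in sham, 1074, 1264, 701 and 637 CPM in PAN and 347, 275, 359 and 328 CPM in PAN + Pio, 3 ranges that did not overlap. PAN + Pio was below PAN by -1.49 ± 0.21 (log2, adjusted p = 0.0018) and above sham by 1.06 ± 0.20 (adjusted p = 0.0088). Adamts14, a procollagen N-propeptidase, behaved alike: 1.94, 3.32, 2.76 and 1.64 CPM in sham, 84.5, 85.98, 47.3 and 46.9 CPM in PAN and 19.7, 8.402, 18.9 and 18.6 CPM in PAN + Pio. It was 6.797-fold above sham (log2 2.76 ± 0.31, adjusted p = 0.0002) and below PAN by -2.01 ± 0.28 (adjusted p = 0.0018).

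Matrix proteases and their inhibitors gave 7 higher calls. On a list of 35 proteases and inhibitors, 7 were higher (Adamts14, Adamts9, Ctsd, Ctsk, Ctsl, Mmp23 and Timp2) and none lower. That is 20% called, against 5.08% of all tested genes, with a median log2 fold change of 0.07. On a list of 35 fibrillar and interstitial matrix genes, Col1a1 alone was higher and none was lower (2.86% called), against 16 higher in PAN. On 17 basement membrane genes Col4a4, a collagen IV chain of the mature glomerular membrane, alone was higher (5.88% called, log2 0.63 ± 0.16, adjusted p = 0.035). Timp2, an inhibitor of metalloproteinases, rose from 133, 154, 139 and 129.7 CPM to 233, 209, 254 and 229.8 CPM (1.67-fold, log2 0.74 ± 0.12, adjusted p = 0.0033), and the lysosomal proteases Ctsd, Ctsl and Ctsk gave 0.42 ± 0.11, 0.58 ± 0.15 and 0.60 ± 0.14. The protease count was 2 higher without Sham library 1 or PAN + Pio library 1, 3 or 4 and 3 higher without Sham library 3 or 4 or with both tagged libraries left out, and the call of Col4a4 was lost without PAN library 4, Sham library 1, 3 or 4 or PAN + Pio library 1, 3 or 4 (adjusted p = 0.052 to 0.098). The difference in counts between these lists was not tested.

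Endothelial and mesangial genes gave mostly lower calls. Of 17 endothelial genes, Ehd3, Emcn and Tie1 were lower and none higher (17.6% called, against 5.08% of all tested genes). A negative sign was found in 15, with a median log2 fold change of -0.46. Ehd3, an endocytic protein of glomerular endothelium, gave -0.49 ± 0.12 (adjusted p = 0.03), Tie1, an endothelial receptor kinase, -0.56 ± 0.14 (adjusted p = 0.028) and Emcn, the sialomucin endomucin, -0.49 ± 0.14 (adjusted p = 0.048). No endothelial gene was called without Sham library 1, Sham library 3 or PAN + Pio library 1, in a fit of the 8 libraries alone, or with the proximal tubule score as a covariate. The summed endothelial level was 8577–12403 CPM in sham and 7254–8543 CPM in PAN + Pio. In PAN against sham 7 of the 17 were lower and none higher, with a median log2 fold change of -0.42. Between PAN + Pio and PAN 1 was higher and none lower, with a median of 0.0027. Of 16 mesangial and smooth muscle genes, Des was higher and Gata3, Notch3 and Rgs5 were lower (25% called). Without both tagged libraries 1 of the 16 was called higher and 1 lower. Gata3, a transcription factor of mesangial cells, gave -0.71 ± 0.15 (adjusted p = 0.016) and lost its call without PAN + Pio library 1 (0.06) or 3 (0.052). Notch3, a receptor of mural cells, gave -0.72 ± 0.17 (adjusted p = 0.027) and lost its call without Sham library 3 (0.053) or PAN + Pio library 1 (0.087), 3 (0.066) or 4 (0.056). Bmp4, a ligand of the TGF beta superfamily, fell from 33.8, 55.6, 35.7 and 65.2 CPM to 17.03, 15.7, 12.9 and 19.5 CPM (2.92-fold, log2 -1.55 ± 0.28, adjusted p = 0.0057), one of 3 lower genes, with Smad2 and Tgfb2, among 26 of the TGF beta and BMP list (11.5% called). This count was 1 without Sham library 1, without any PAN + Pio library, with the proximal tubule score as a covariate or without both tagged libraries, and 6 without Sham library 4.

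**Figure D4:**
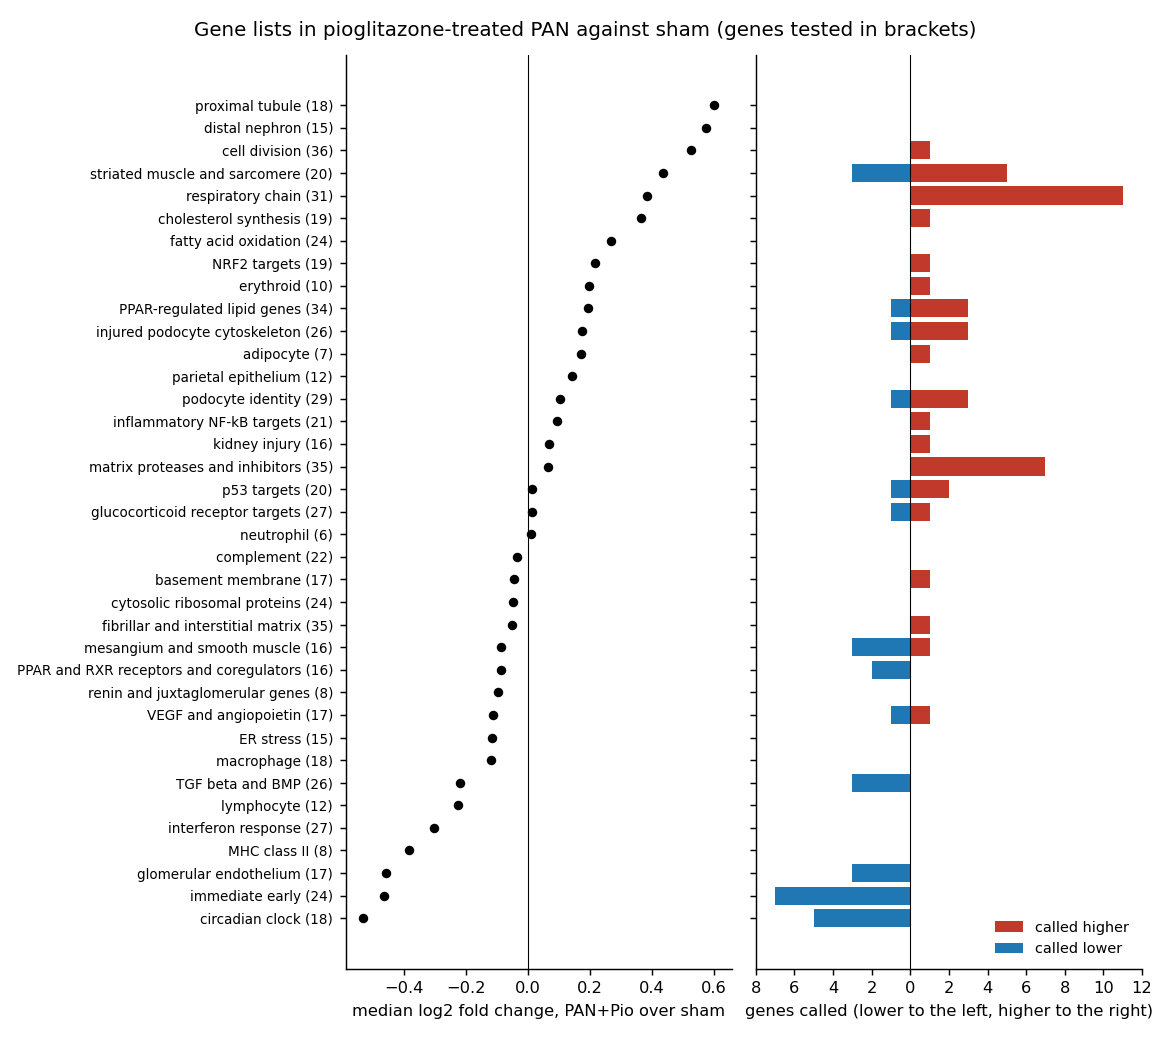
Median log2 fold change of PAN + Pio over sham (left) and number of genes called higher (red) or lower (blue) at an adjusted p under 0.05 (right) for 37 gene lists, with the number of tested genes in brackets. The respiratory chain holds 11 higher and no lower genes, the immediate early list 7 lower and the circadian clock 5 lower.

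Of 34 tested lipid genes under PPAR control, 4 differed from sham (11.8%, against 5.08% of all tested genes). Cpt1b, Gpd1 and Cidea were higher, Fabp5 was lower, and the median log2 fold change was 0.19. Fabp5, a fatty acid binding protein, lost its call with the proximal tubule score as a covariate and without Sham library 1, 3 or 4 or any PAN + Pio library (adjusted p = 0.051 to 0.11 with a library left out). Cidea, a lipid droplet protein, lost it without PAN library 1 or 4, Sham library 1, 2 or 4 or PAN + Pio library 1 or 3 (0.054 to 0.15). Nor was Cidea called by DESeq2 or limma-voom, without the filter or in the 8 libraries alone. The same held with the proximal tubule score as a covariate and without both tagged libraries. Its counts were few and overlapped, at 2 to 6 in sham libraries and 5 to 21 in PAN + Pio libraries. Angptl4, an inhibitor of lipoprotein lipase and a widely used PPAR readout, measured 0.925, 0.973, 1.49 and 1.403 CPM in sham, 6.23, 6.38, 5.55 and 2.895 CPM in PAN and 0.748, 1.803, 2.32 and 0.606 CPM in PAN + Pio. Sham and PAN + Pio overlapped (log2 0.18 ± 0.53, adjusted p = 0.86), and PAN + Pio was below PAN by -1.94 ± 0.51 (adjusted p = 0.045), a call lost without PAN library 1, 2 or 3, Sham library 1, 2 or 4 or PAN + Pio library 1, 2 or 4 (adjusted p = 0.054 to 0.13). Cd36, a fatty acid scavenger receptor, gave -0.24 ± 0.22 against sham (adjusted p = 0.51) and Pdk4, the kinase that shuts off pyruvate oxidation, 0.15 ± 0.48 (adjusted p = 0.87). Fabp4, the fatty acid binding protein of adipocytes, measured 0.176, 0.265, 0.112 and 0.468 CPM in sham and 0.166, 0.537, 1.79 and 0.416 CPM in PAN + Pio and did not pass the test (adjusted p = 0.23).

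The members that were higher in PAN + Pio were also higher in PAN. Cpt1b, the muscle form of the enzyme that admits fatty acids to mitochondria, measured 10.7, 7.65, 5.29 and 7.99 CPM in sham, 82.2, 74.1, 55.4 and 52.5 CPM in PAN and 26.2, 20.1, 23.97 and 17.8 CPM in PAN + Pio. It was 2.79-fold above sham (log2 1.48 ± 0.25, adjusted p = 0.0039) and below PAN by -1.59 ± 0.24 (adjusted p = 0.0031). Gpd1, glycerol-3-phosphate dehydrogenase, rose from 48.96, 90.98, 49.1 and 72.1 CPM to 207, 169.9, 216 and 206 CPM (3.06-fold, log2 1.61 ± 0.22, adjusted p = 0.00094), with PAN at 1.71 ± 0.22 against sham. Pparg itself was at 0.484, 1.24, 1.27 and 1.36 CPM in sham and 0.955, 0.614, 1.35 and 1.55 CPM in PAN + Pio (log2 0.03 ± 0.42, adjusted p = 0.97). None of the 16 receptors and coregulators tested was higher in the main fit. By DESeq2, limma-voom, library totals, upper quartile scaling or no filter 1 was called higher. The same held without Sham library 2 or both tagged libraries, and 2 were called higher without PAN library 2. The coactivator Ncoa3 was among those lower in the main fit (-0.43 ± 0.11, adjusted p = 0.032). Ncoa3 lost its call without Sham library 1, 2 or 3 or PAN + Pio library 1, 3 or 4 (adjusted p = 0.056 to 0.11). Without both tagged libraries none of the 16 was called lower. The adipocyte markers Plin1, Lep and Retn had 0 to 3 counts per library in both groups. Others on that list had a few more: Adipoq had 3 to 6 counts in sham and 3 to 11 in PAN + Pio. Fabp4 had 3 to 12 and 4 to 44. Of 7 tested adipocyte genes 1, Cidea, was called, higher (14.3%, against 5.08% of all tested genes). A positive sign was found in 4 and a negative one in 3, with a median log2 fold change of 0.17. RefSeq gave a promoter for 1 of the 3 higher lipid genes, Cidea, and it held no direct repeat of the kind bound by PPAR and RXR (AGGNCANAGGNCA, either strand), which 0.412% of all promoters held.

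Mitochondrial respiratory chain genes gave the most higher calls of the lists examined. Of 31 tested nuclear-encoded subunits 11 were higher and none lower (35.5% called, against 5.08% of all tested genes). All 31 had a positive sign, and the median log2 fold change was 0.39. Examples were Cox8a (log2 0.75 ± 0.15, adjusted p = 0.012) and Cox6a1 (0.57 ± 0.11, adjusted p = 0.011) of cytochrome oxidase, Uqcrq (0.66 ± 0.12, adjusted p = 0.007) of complex III and Ndufb8 (0.46 ± 0.09, adjusted p = 0.012) of complex I. Uqcrq and Ndufb8 did not overlap between the groups, and Cox8a overlapped in PAN + Pio library 3, at 33.2 CPM against 33.4 CPM in Sham library 2. In PAN against sham 22 of the 31 were higher. None of 24 fatty acid oxidation genes passed the test, although all 24 had a positive sign with a median of 0.27. An unadjusted p under 0.05 was found for 5 of them, against 4098 of all 17061 tested genes. Neither DESeq2 nor limma-voom called a fatty acid oxidation gene. The proximal tubule score was also higher in the treated group, at a mean of 0.18 against -0.45 in sham, and with it as a covariate 7 of the 31 were called; its part in the result beyond that fit was not tested. The count was 5 without Sham library 1, 3 or 4 or PAN + Pio library 1 or 4, 6 without PAN + Pio library 3 or with both tagged libraries left out, and 7 without PAN library 4.

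Per2, Per3, Cry2, Dbp and Bhlhe40 of the circadian clock list were lower in PAN + Pio than in sham, and Per2, Per3 and Cry2 were also lower than in PAN + MP. The clock is a transcription loop in which CLOCK and ARNTL drive the Per and Cry repressors through E-boxes and the output factor DBP acts through D-boxes, and its transcripts swing with the hour of day. Of 18 tested genes these 5 were called lower and none higher (27.8% called, against 5.08% of all tested genes). A negative sign was found in 13 and a positive one in 5, with a median log2 fold change of -0.53. Per3 measured 95.8, 111, 145 and 263 CPM in sham and 27.7, 39.02, 45.4 and 62.9 CPM in PAN + Pio, a 3.51-fold fall without overlap (log2 -1.81 ± 0.31, adjusted p = 0.0046). Per2 measured 61.1, 85.6, 56.9 and 170.3 CPM in sham and 29.2, 33.6, 36.8 and 48.00 CPM in PAN + Pio (2.53-fold, log2 -1.34 ± 0.30, adjusted p = 0.022). Sham library 4 was the highest of the 8 in both genes, and the remaining sham libraries also lay above every treated library. Cry2 gave -0.56 ± 0.14 (adjusted p = 0.031), Dbp -1.65 ± 0.44 (adjusted p = 0.044) and Bhlhe40, a repressor that competes at E-boxes, -0.80 ± 0.17 (adjusted p = 0.013).

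PAN + MP libraries, by contrast, were at 112, 144, 149 and 121 CPM for Per2 and 119.8, 167, 142 and 111 CPM for Per3. The direct test of PAN + Pio against PAN + MP, in which 108 genes (0.633%) were called, gave -1.83 ± 0.31 for Per2 (adjusted p = 0.019), -1.63 ± 0.31 for Per3 (adjusted p = 0.028) and -0.84 ± 0.14 for Cry2 (adjusted p = 0.019). Untreated PAN against sham gave 6 lower and 3 higher calls among the 18 clock genes, with a median log2 fold change of -0.42. Between PAN + Pio and PAN 1 of the 18 was called, lower in PAN + Pio. In PAN, Per3 was also low (21.6, 34.6, 26.8 and 45.03 CPM, log2 -2.26 ± 0.32 against sham), whereas Per2 was not called (77.9, 38.2, 75.8 and 57.9 CPM, adjusted p = 0.18). Since the hour of kill was not given, time of day and group cannot be told apart here.

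Per3 and Bhlhe40 kept their calls against sham with any single library left out, and Per2, Cry2 and Dbp did not. Without both tagged libraries 3 of the 18 clock genes were called lower than in sham. Against sham, Per2 lost its call without PAN + Pio library 1 (adjusted p = 0.077) or 3 (0.061). Cry2 lost it without PAN + Pio library 1 (0.094) or 3 (0.087) or Sham library 2 (0.062) or 4 (0.064). Dbp lost it without PAN + Pio library 1, 2 or 3 or Sham library 3 or 4 (0.061 to 0.12). Against PAN + MP, leaving out PAN + Pio library 1 or 3 ended the call of all 3 genes and leaving out PAN + Pio library 2 that of Per3 (adjusted p = 0.054 to 0.12).

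Promoters of both lead clock motifs are shown for the called genes that held one. Of the 5 promoters, all found in RefSeq (GRCr8), 1 held the E-box CACGTG, present in 6.65% of all promoters, and 1 held the D-box (TTACGTAA or TTATGTAA), present in 1.01%, both searched on either strand. Capitals mark the match.
Bhlhe40, E-box (chr4:143174200-143174499, plus strand): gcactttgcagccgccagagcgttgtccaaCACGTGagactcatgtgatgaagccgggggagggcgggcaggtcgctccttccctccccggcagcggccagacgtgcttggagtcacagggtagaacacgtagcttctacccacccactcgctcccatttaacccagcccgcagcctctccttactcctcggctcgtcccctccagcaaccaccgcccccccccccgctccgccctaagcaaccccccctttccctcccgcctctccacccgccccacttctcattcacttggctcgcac
Per2, D-box (chr9:99496944-99497243, minus strand): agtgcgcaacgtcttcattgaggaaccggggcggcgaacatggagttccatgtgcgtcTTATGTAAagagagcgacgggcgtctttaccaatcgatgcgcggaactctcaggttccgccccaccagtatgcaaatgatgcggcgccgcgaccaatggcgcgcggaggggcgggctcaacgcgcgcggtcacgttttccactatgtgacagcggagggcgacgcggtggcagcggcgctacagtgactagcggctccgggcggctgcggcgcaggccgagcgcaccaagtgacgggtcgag

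**Figure D5:**
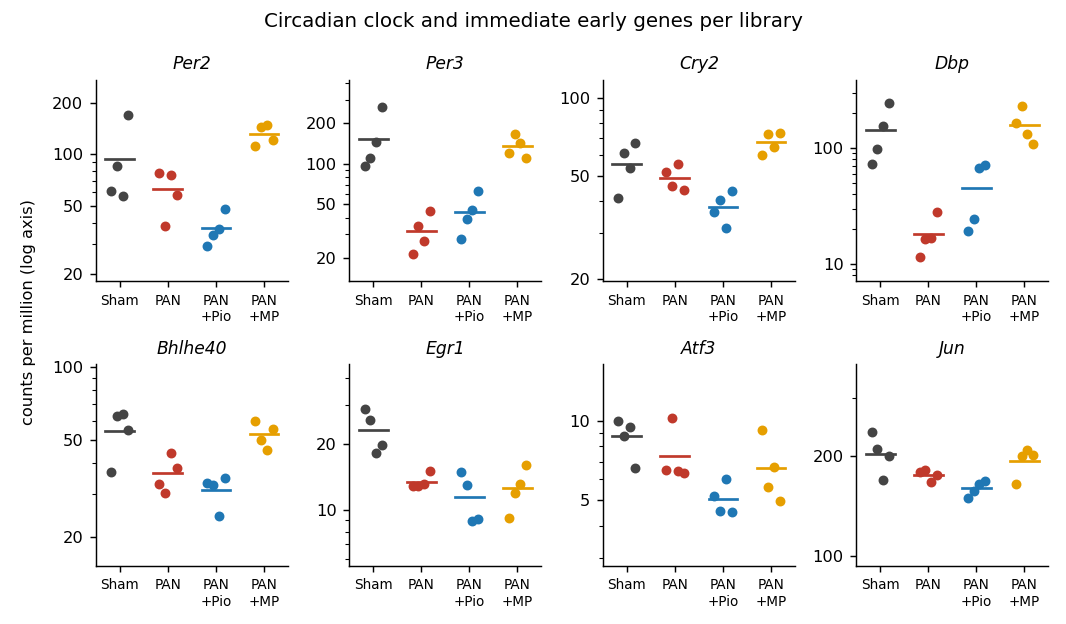
Level in CPM (y axis, log scale) of 5 clock genes and 3 immediate early genes in each of the 16 libraries by group, with a bar at each group mean. For Per2 and Per3 every PAN + Pio library lies below every sham and every PAN + MP library.

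Immediate early genes, which cells switch on within minutes of a stimulus and which respond to handling of tissue, gave the most lower calls of the lists examined. Of 24 tested, 7 were lower (Atf3, Egr1, Fosl2, Ier2, Jun, Klf2 and Maff) and none was higher. That is 29.2% called, against 5.08% of all tested genes. A negative sign was found in 22, with a median log2 fold change of -0.47. Egr1, a zinc finger transcription factor, measured 28.8, 25.9, 18.2 and 19.8 CPM in sham and 14.99, 13.01, 8.97 and 9.16 CPM in PAN + Pio (2.01-fold, log2 -1.01 ± 0.20, adjusted p = 0.009). Maff, a small MAF protein, gave -1.19 ± 0.30 (adjusted p = 0.035), Klf2, a flow-responsive factor of endothelium, -0.60 ± 0.15 (adjusted p = 0.029) and Jun, a subunit of AP-1, -0.35 ± 0.10 (adjusted p = 0.048). Among these 7 Egr1 was the only gene to keep its call without every single library. The count fell to 1 without Sham library 1, PAN + Pio library 1 or PAN + Pio library 3, with both tagged libraries left out, and with the proximal tubule score as a covariate, and to 2 without PAN + Pio library 4. The mean log2 level of the 24 genes, each against its own mean over 16 libraries, was 0.21 in sham and 0.29 in PAN. It was -0.26 in PAN + MP and -0.24 in PAN + Pio.

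Cell division genes were called in PAN (35 of 36 higher) and 1 of 36 was called in PAN + Pio against sham (2.78%, against 5.08% of all tested genes). All 36 tested genes had a positive sign against sham, with a median log2 fold change of 0.53 against 1.87 in PAN. An unadjusted p under 0.05 was found for 17 of the 36, against 4098 of all 17061 tested genes. Of the 36, 1 gene, the spindle checkpoint kinase Bub1b, passed the test (log2 0.87 ± 0.24, adjusted p = 0.049). That call was lost without PAN library 1, 3 or 4, Sham library 1, 2 or 4 or PAN + Pio library 1, 3 or 4 (adjusted p = 0.051 to 0.14). The count was 5 without PAN + Pio library 2 and by DESeq2, which called 1780 genes in all. With the proximal tubule score as a covariate it was 3, and without PAN library 2 or Sham library 3 it was 2. By limma-voom and with RLE scaling, upper quartile scaling or library totals it was 0. It was also 0 without the filter, in the 8 libraries alone and without both tagged libraries. Mki67, the proliferation marker Ki-67, measured 19.9, 19.1, 38.4 and 21.9 CPM in sham, 118, 135, 82.7 and 80.96 CPM in PAN and 43.3, 25.2, 43.3 and 38.01 CPM in PAN + Pio, with overlap between sham and PAN + Pio (log2 0.59 ± 0.27, adjusted p = 0.19). PAN + MP libraries were lower still, at 18.8, 11.2, 10.8 and 8.89 CPM, and PAN + Pio exceeded them by 1.59 ± 0.28 (adjusted p = 0.021), a call lost without PAN + Pio library 1, 3 or 4 (adjusted p = 0.056 to 0.083). Of 20 p53 targets, Ccng1 and Gadd45a were higher and Sulf2 lower (15% called). Ccng1, cyclin G1, was 1.88-fold above sham (log2 0.91 ± 0.16, adjusted p = 0.0045) and Gadd45a, a stress-induced arrest protein, 2.54-fold (1.35 ± 0.20, adjusted p = 0.0017).

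Lists of inflammation and of cells from the blood gave few calls. At the 5.08% called among all tested genes, lists this short hold few. The share was 4.76% for inflammatory NF-kB targets, 5.26% for NRF2 targets and 6.25% for kidney injury genes, close to that of all genes. Of 10 erythroid genes 1 was called, higher (10%), and 0 to 1 with 1 library left out. None of 18 macrophage, 12 lymphocyte, 6 neutrophil, 22 complement, 8 MHC class II or 27 interferon response genes passed the test against sham by edgeR, and 1 of 21 inflammatory NF-kB targets, Birc3, did. Birc3, an inhibitor of apoptosis, lost its call without PAN library 1 or 4, Sham library 1, 2 or 4 or any PAN + Pio library (adjusted p = 0.056 to 0.13), and on library totals or upper quartile scaling. At an unadjusted p under 0.05 the numbers for the 6 lists without a call were 1, 1, 0, 5, 4 and 3. Among all 17061 tested genes the number was 4098. In these 6 lists limma-voom called none, and DESeq2 called 1 macrophage gene and 2 complement genes. Gpx2, a glutathione peroxidase under NRF2 control, rose from 1.32, 1.86, 1.23 and 1.75 CPM to 4.44, 4.72, 4.402 and 4.202 CPM (2.88-fold, log2 1.53 ± 0.17, adjusted p = 0.0002), the only called gene of 19 NRF2 targets. Tnfrsf12a, the TWEAK receptor, was the only one of 16 kidney injury genes called (2.25-fold, log2 1.17 ± 0.26, adjusted p = 0.017), and it lost its call without Sham library 3 (0.053) or PAN + Pio library 1 (0.057) or 3 (0.061). Angptl2, a secreted angiopoietin-like protein, was 1.85-fold above sham (log2 0.89 ± 0.13, adjusted p = 0.0016).

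A set of 12 genes, 6 higher and 6 lower, differed from both sham and PAN in the same direction, where a difference added under pioglitazone would be found. PAN + Pio against PAN called 628 genes (3.68%), and these 2 comparisons share the PAN + Pio libraries. Cxcr7, the atypical chemokine receptor now named Ackr3, measured 201, 261, 173 and 196 CPM in sham, 216, 160.0, 220.0 and 236 CPM in PAN and 371, 269.9, 322 and 359 CPM in PAN + Pio (1.59-fold over sham, log2 0.67 ± 0.14, adjusted p = 0.016; log2 0.67 ± 0.14 over PAN, adjusted p = 0.016). Metrnl, the secreted protein meteorin-like, measured 86.3, 128, 74.8 and 115 CPM, 85.4, 64.6, 81.2 and 115 CPM and 162, 131, 177 and 201 CPM in the same order (log2 0.73 ± 0.19 over sham, adjusted p = 0.035; 0.95 ± 0.19 over PAN, adjusted p = 0.0094). Every treated library of both genes lay above every sham and PAN library. The other higher genes were Frmd6, Skida1, Mmp23 and Spg20, at 0.51 ± 0.12, 0.52 ± 0.13, 0.50 ± 0.12 and 0.44 ± 0.12 over sham.

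On the lower side, Rgs5, a regulator of G-protein signalling in pericytes, measured 52.4, 54.1, 46.3 and 25.1 CPM in sham, 20.3, 49.9, 34.1 and 50.3 CPM in PAN and 22.8, 18.2, 18.4 and 20.6 CPM in PAN + Pio (2.22-fold below sham, log2 -1.15 ± 0.25, adjusted p = 0.018). PAN library 1, at 20.3 CPM, lay within the treated range, and the difference from PAN was -0.95 ± 0.25 (adjusted p = 0.048). Pdgfd, a ligand of the PDGF beta receptor, measured 21.8, 20.7, 25.2 and 15.6 CPM in sham, 21.6, 22.6, 23.3 and 17.9 CPM in PAN and 13.7, 11.97, 14.96 and 14.9 CPM in PAN + Pio (log2 -0.59 ± 0.14 against sham, adjusted p = 0.03; -0.62 ± 0.14 against PAN, adjusted p = 0.024). Fosl2, an AP-1 subunit, Rras, a Ras-family GTPase, and Gja5, the gap junction protein connexin 40, gave -0.53 ± 0.14, -0.49 ± 0.11 and -0.43 ± 0.11 against sham, and the remaining lower gene has no symbol in the table. The set held 2 genes without Sham library 1 or PAN + Pio library 4, 3 without PAN library 2 or PAN + Pio library 1, 4 without Sham library 3 or PAN + Pio library 3, 7 without PAN library 1 and 6 without both tagged libraries.

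The same 4 genes lay on the same side of sham in PAN + MP. PAN + MP against sham gave 0.61 ± 0.14 for Cxcr7, 0.84 ± 0.19 for Metrnl, -1.11 ± 0.25 for Rgs5 and -0.85 ± 0.14 for Pdgfd. PAN + Pio differed from PAN + MP by 0.06 ± 0.14, -0.11 ± 0.18, -0.04 ± 0.25 and 0.26 ± 0.14 in the same genes, with adjusted p of 0.97, 0.94, 0.99 and 0.68, which does not show that they are equal. Each of the 11 named genes lost its call against sham when 1 of at least 2 libraries was left out. For Cxcr7 these were Sham library 1 or 3 and PAN + Pio library 1 or 4 (adjusted p = 0.051 to 0.059), for Metrnl Sham library 1 or 3 and PAN + Pio library 1, 3 or 4 (0.081 to 0.11), for Rgs5 Sham library 1 and PAN + Pio library 3 (0.059 to 0.062) and for Pdgfd Sham library 1 or 3 and each PAN + Pio library (0.055 to 0.087).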

How the data were processed

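Glomerular RNA of 16 rats in 4 groups of 4 was sequenced from ribosome- and globin-depleted, directional libraries made from 350 ng of total RNA, per the labels' protocols. The authors deposited whole-number counts per gene and library, and, per the submitters' processing notes, the tools were cutadapt, STAR, HTSeq 0.6.1p1 and DESeq2 with build Rnor_6.0, in roles that the notes do not state; they name no annotation. The deposited table also holds the authors' normalized counts (a signal), log2 fold changes and adjusted p-values; none of these was used for a test, the 16 normalized per-sample columns included. In the authors' deposited values, 448 of the 511 higher and 338 of the 356 lower genes found here also have an adjusted p-value under 0.05 with the same sign.

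From the counts, edgeR 4.0.16 (R 4.3.3) was run on all 16 libraries in 1 model of 4 groups with TMM scaling, a filter for low counts (filterByExpr, minimum count 10) and the quasi-likelihood F test, with Benjamini-Hochberg adjustment over the 17061 tested genes and calls at an adjusted p under 0.05. The SE is the absolute log2 fold change divided by the square root of F, and levels are CPM on TMM-adjusted library sizes. On simulated data with the real library sizes the test recovered 65.7% of genes changed by 1 on the log2 scale and 91% of those changed by 2. P-values set a difference between groups against the spread of libraries within groups. That spread was estimated over all 4 groups with 12 residual degrees of freedom, so PAN and PAN + MP libraries also enter it. Counting error further limits the precision of low counts, beside the spread between libraries: a count of 0 in a library allows up to 3 counts.

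Genes named are, among those with a symbol, the 8 highest and 8 lowest called genes with a mean of at least 1 CPM and no overlap between the groups, apart from those named through a list or class; the 8 of smallest adjusted p in each direction called alike in PAN and not between PAN + Pio and PAN, and likewise of those called alike against PAN; the 4 of smallest p in each list; and a fixed set of markers and drug targets. Not all are printed, and some list members are not reported here. Other list members are named to account for a count. The comparison, genes and 37 lists were chosen with earlier results of these data known. Of 765 list symbols 758 were found in the table. Alternatives were DESeq2 1.42.0, limma-voom (limma 3.58.1), other scalings, no filter, the 8 libraries alone, a proximal tubule score as covariate, and libraries left out. Promoters came from RefSeq (GRCr8) and were searched for 6 motifs; genome positions of the authors' genes were not used here.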

Additional observations from a re-analysis of the deposited data

Results flagged for a closer look

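In 78 pairs of a named gene and a group, 1 of the 4 libraries lay far from the other 3 in 3 cases by Dixon's test at its 95% critical value, about the share that chance gives (1 in 20 groups). Ephb1 measured 9.22, 9.25, 8.804 and 6.28 CPM in PAN + Pio libraries 1 to 4, where library 4 at 6.28 CPM stood apart. Rras measured 30.3, 29.2, 20.8 and 29.04 CPM in PAN + Pio, where library 3 at 20.8 CPM stood apart. Gja5 measured 199, 207, 271 and 208 CPM in sham, where library 3 at 271 CPM stood apart.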

How the results depend on the processing

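No paired analysis was possible because the columns of the count table carry no replicate numbers. The number of called genes (867, 511 higher and 356 lower) was 1780 (856 and 924) by DESeq2, 509 (321 and 188) in a fit of the 8 libraries alone, 498 (333 and 165) with the proximal tubule score as a covariate, 507 (348 and 159) without the tagged libraries, 203 at an adjusted p under 0.01 and 194 at 2-fold or more. With 1 library left out it ran from 334 to 1234 (215 to 672 higher, 95 to 562 lower), where leaving out PAN libraries was added after seeing the data. Members called over all lists (73) were 128 by DESeq2, 47 with the covariate, 48 without the tagged libraries and 31 to 101 with 1 library left out. Genes called alike against PAN (12) were 52, 7, 6 and 2 to 17 under the same changes, and genes shared with PAN and not called against it (653) were 1188, 371, 422 and 256 to 983. Other scalings and limma-voom gave 762 to 883 calls and no filter 659. No called gene that was followed changed sign under any alternative. Genes not called against sham that lie near 0 did: Wt1 ranged from -0.077 to 0.24, Synpo from -0.16 to 0.024, Podxl from -0.15 to 0.089, Angptl4 from -0.19 to 0.43, Pdk4 from -0.13 to 0.64 and Pparg from -0.21 to 0.23 on the log2 scale with 1 library left out. Without the tagged libraries these were 0.083 for Synpo, 0.048 for Podxl, -0.28 for Angptl4, -0.17 for Pdk4 and -0.0084 for Pparg, Angptl4 was -0.013 by limma-voom and Pparg -0.0013 on library totals. The causes were not tested.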
